A study of Rattus norvegicus with 6 samples.

Results

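Integrins are the receptors by which cells hold on to their surroundings, and laminins are the networks many of them hold. The 37 genes described here are the features with a single annotated symbol beginning Itga or Itgb plus a number, the leukocyte alpha subunits, the Lama, Lamb and Lamc chains, and the nidogens. They were taken from 18166 genes, with the feature of highest mean signal standing for each gene. Of the 37, 34 are integrin subunits, laminin chains or nidogens. The other 3, Itgb1bp1, Itgb1bp2 and Itgb3bp, carry an integrin name but encode proteins that bind integrin tails and are described apart. The symbols Itgav, Itgae, Itgb3, Itgb2l, Lamb1, Lamb4 and Hspg2 had no feature under a single symbol and were not analysed here.

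RNA was measured on one-colour arrays in adipose-derived stem cells (ADSCs), stromal precursor cells, from inguinal fat of female Wistar rats aged 2 weeks. The 3 control cultures were grown in alpha-MEM with 10% fetal bovine serum. The 3 induced cultures were kept for 7 days in alpha-MEM with 20% serum, 0.5 mM 3-isobutyl-1-methylxanthine (IBMX, a phosphodiesterase inhibitor), 1 µM dexamethasone (a glucocorticoid) and 5 µg/ml insulin. Because serum and inducers both differ, their parts cannot be told apart. The labels call the arrays biological replicates without saying whether they came from separate animals, so p-values measure the spread between these cultures, which may be partly technical. The labels give no culture time for the control cells.

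An integrin is a pair of an alpha and a beta subunit, and the alpha subunit largely sets the ligand. Collagen is bound through alpha1, alpha2, alpha10 and alpha11, laminin through alpha3, alpha6 and alpha7, and proteins with an Arg-Gly-Asp sequence, such as fibronectin and vitronectin, through alpha5, alpha8 and alphav. A laminin is a trimer of an alpha, a beta and a gamma chain, and nidogens link it to collagen IV in the basement membrane, the sheet that encloses each adipocyte. In mouse preadipocyte lines, differentiation is known for a move from the fibronectin receptor alpha5 to the laminin receptor alpha6.

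Values are log2 RMA signals, in which a step of 1 is a factor of 2, and differences are induced minus control. Called means an adjusted p under 0.05 in limma, with Benjamini-Hochberg adjustment over all 18166 genes. Over these genes the control arrays correlated with each other at r = 0.982 to 0.987. Induced replicates 1 and 2 correlated at 0.994, with 24 genes over 2-fold apart against 336 to 522 between control arrays, and if they share a culture the errors here are too small. Induced replicate 3 stood apart from both, at 0.961. The mean of 12 adipocyte markers was 8.31, 6.90 and 6.70 in control (replicates 1 to 3, the order used throughout) and 10.47, 10.46 and 11.43 in induced cells. The mean of 10 stromal markers was 10.74 to 10.93 in control, 10.61 and 10.54 on induced replicates 1 and 2, and 9.57 on induced replicate 3. The mean of 10 endothelial markers was 5.17 to 5.30 on all arrays, with Cdh5, the endothelial cadherin, at 4.47 to 4.68. Of these 10 markers 4 had positive differences, the largest that of Egfl7 (0.61), and 6 had negative ones, the largest that of Tek (-0.74). In bulk RNA, fewer cells of a type and less RNA per cell cannot be told apart.

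Upstream sequence was matched for 29 of the 37 members in RefSeq's GRCr8 table. The 250 bases before the annotated gene start are shown for Itga11, the called member, and for Itgb5 and Itga4, the members with the next lowest adjusted p among those matched that encode a subunit. Capitals mark, on either strand, a GC box (GGGCGG), a Smad box (CAGAC), the E-box CAGGTG, a glucocorticoid receptor half-site (AGAACA) or a nuclear receptor half-site (AGGTCA).
Itga11 (chr8:72041182-72041431, + strand): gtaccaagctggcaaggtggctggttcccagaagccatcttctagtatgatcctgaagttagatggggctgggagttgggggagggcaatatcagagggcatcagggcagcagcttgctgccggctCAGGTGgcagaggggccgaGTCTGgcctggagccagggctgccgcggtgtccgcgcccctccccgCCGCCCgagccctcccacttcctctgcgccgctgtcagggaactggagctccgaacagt
Itgb5 (chr11:80449374-80449623, - strand): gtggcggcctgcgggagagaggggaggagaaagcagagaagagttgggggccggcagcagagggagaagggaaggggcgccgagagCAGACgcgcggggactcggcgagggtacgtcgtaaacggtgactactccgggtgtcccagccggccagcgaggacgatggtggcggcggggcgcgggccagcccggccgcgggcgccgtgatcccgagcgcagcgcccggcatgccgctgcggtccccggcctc
Itga4 (chr3:84569765-84570014, + strand): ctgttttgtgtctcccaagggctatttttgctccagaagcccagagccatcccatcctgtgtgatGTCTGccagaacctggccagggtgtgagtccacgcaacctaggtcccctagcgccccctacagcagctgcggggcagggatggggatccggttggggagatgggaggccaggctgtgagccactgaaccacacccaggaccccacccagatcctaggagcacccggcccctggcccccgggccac
The Itga11 window held 1 GC box, 1 Smad box and 1 E-box, and the Itgb5 and Itga4 windows held 1 Smad box each. Of 33469 windows of this length, 30.5% held a GC box, 42.9% a Smad box, 15.9% the E-box, 17.5% AGAACA and 14.1% AGGTCA. Among the 29 matched members 13, 18, 6, 4 and 3 did. None of the motifs overlapped in the windows shown, and these matches describe letters only.

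With all 6 arrays 1 member passed the test: Itga11, a collagen receptor subunit of mesenchymal cells that pairs with beta1, fell by 2.20 on the log2 scale, a 4.60-fold difference. Itga2, another collagen receptor subunit, and Itgb5, the beta subunit of a vitronectin receptor, averaged lower without passing the test. Itga4, which binds VCAM-1 and fibronectin, and Itga7, a laminin receptor subunit best known from muscle, averaged higher without passing it. The laminin chains and nidogens stayed within 0.43 of control on average. Thus 1 of 37 members was called (0 higher, 1 lower), where 0.749% of all genes were called (0.479% higher and 0.270% lower). Before adjustment 6 of 37 members, 16.2%, had p under 0.05, against 17.6% of all genes. Means differed by 2-fold or more for 5 members, 13.5%, against 4.98% of all genes. The induced arrays lay wholly above or below the control arrays for 6 members (2 higher, 4 lower), 16.2%, against 25.4% of all genes (12.0% higher and 13.4% lower). The members' median difference was -0.09, with 24 of 37 negative, and that of all genes -0.01.

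**Figure D1:**
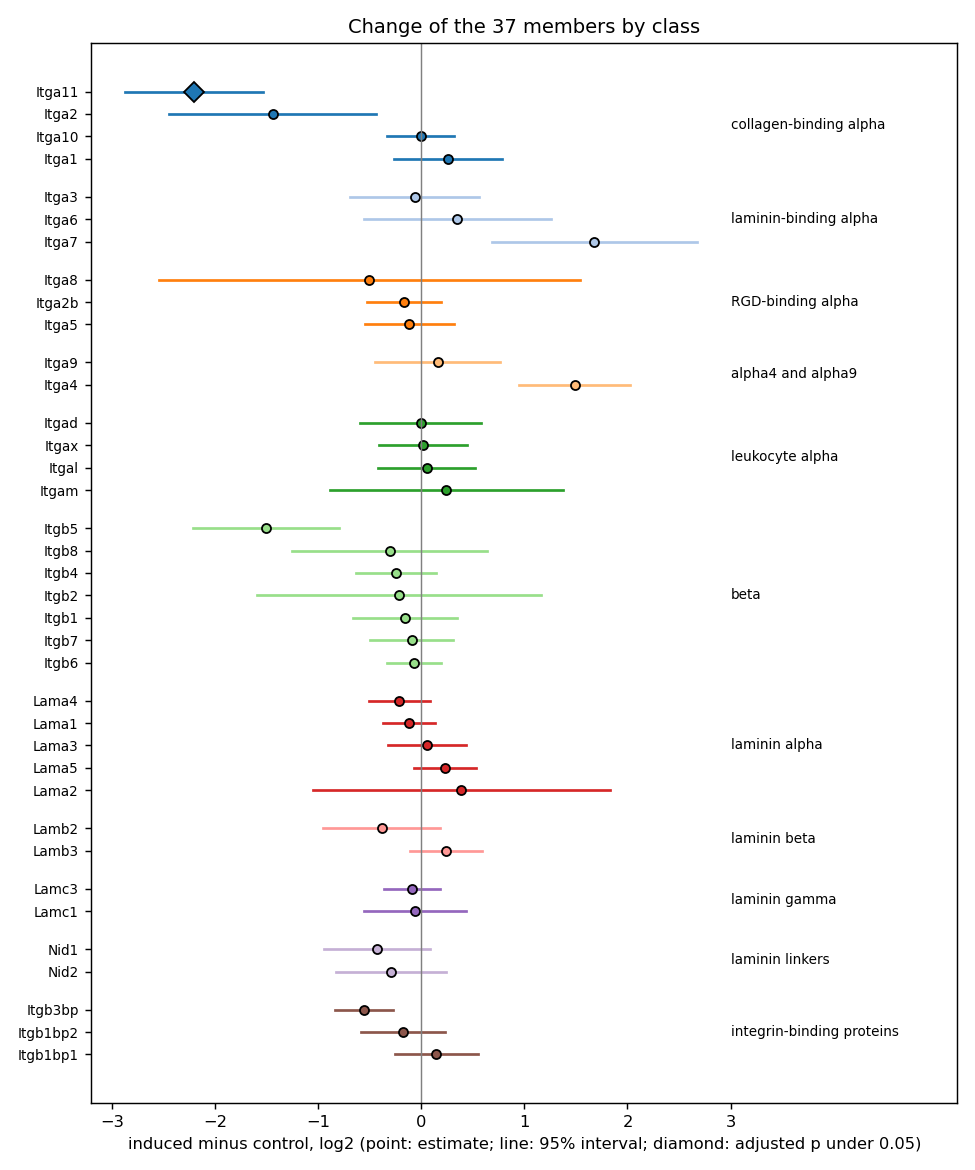
Induced minus control difference in log2 signal for each of the 37 members, grouped by class, as the limma estimate (point) with its 95% interval before any adjustment (line). Itga11, the diamond, is the 1 member with an adjusted p under 0.05, and the intervals of all laminin chains and both nidogens include 0.

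Among the collagen-binding subunits, Itga11 read 10.93, 11.20 and 12.03 in control and 9.31, 9.17 and 9.07 in induced cells. The lowest control array was thus 1.62 above the highest induced array, and the induced arrays lay close together (9.18 ± 0.12 against 11.38 ± 0.57 in control, SD, n = 3 each). In limma the fall had an SE of 0.28 and an adjusted p of 0.0323. The estimate ran from -2.43 to -1.88 when 1 array was left out. In 3 of these fits Itga11 lost its call. Its adjusted p was 0.152 with induced replicate 1 dropped, 0.124 with induced replicate 2 dropped and 0.101 with control replicate 2 dropped. Dropping control replicate 1 (0.0406), control replicate 3 (0.0351) or induced replicate 3 (0.0207) kept the call. Why the call was lost in some of these fits was not tested. With all 36685 features tested in place of 1 per gene, the adjusted p was 0.0537.

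Itga2, which platelets and epithelial cells also use to bind collagen, read 8.24, 8.52 and 7.64 in control and 7.16, 7.15 and 5.77 in induced cells. The groups did not overlap, but induced replicate 3 lay far below the other induced arrays, and the estimate of -1.44 (SE 0.42) had an adjusted p of 0.166. Without that array the estimate was -0.98 (adjusted p = 0.1), and without both replicate 3 arrays it was -1.23 and was called (adjusted p = 0.00894). Itga1, the collagen receptor subunit of many stromal cells, read 8.37, 8.85 and 8.33 in control and 8.65, 8.53 and 9.15 in induced cells, which overlap. Its difference was 0.26 (95% interval -0.27 to 0.78). Itga10, best known from cartilage, read 5.23 to 5.56 on all arrays, with a difference of -0.01 (95% interval -0.33 to 0.32).

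**Figure D2:**
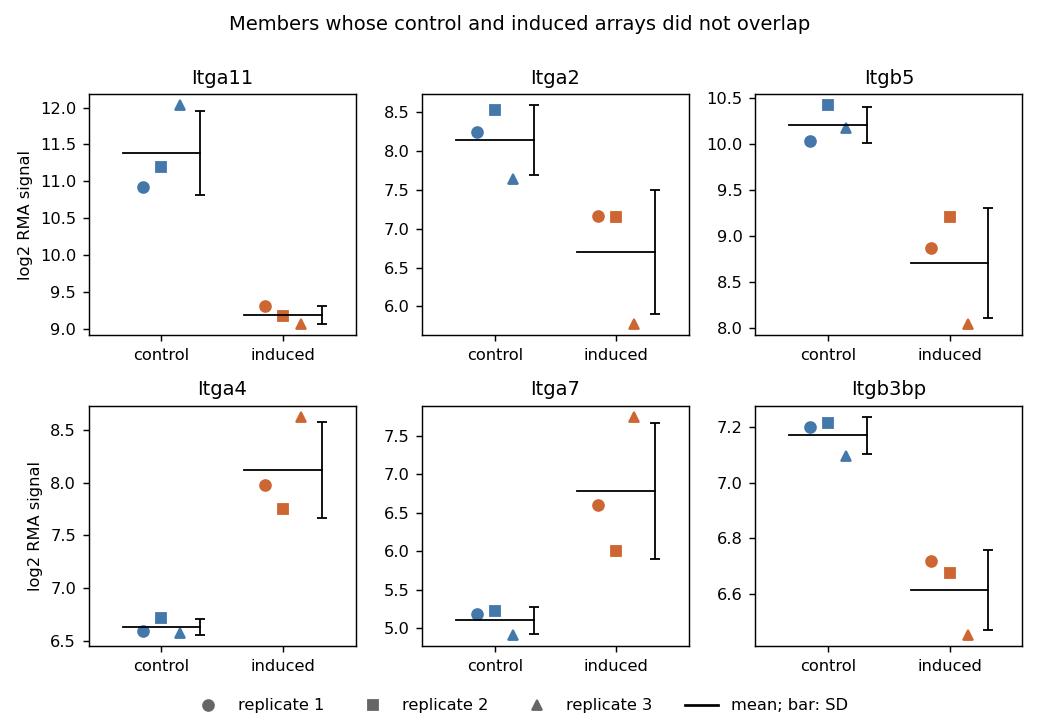
Log2 RMA signal on each array for the 6 members whose control (blue) and induced (orange) arrays do not overlap, with the group mean and SD (n = 3). Each panel has its own axis, and in all 6 panels induced replicate 3 (triangle) is the induced array farthest from the control arrays.

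Among the laminin-binding subunits, Itga7 read 5.18, 5.23 and 4.90 in control and 6.60, 6.01 and 7.74 in induced cells. All induced arrays lay above all control arrays, but they spread over 1.74. The difference of 1.68 (SE 0.41, a 3.20-fold difference) had an adjusted p of 0.123. Without induced replicate 3 it was smaller, at 1.20, and was called (adjusted p = 0.0339). With any other array left out Itga7 was not called (adjusted p = 0.128 to 0.317). Of the 8 measured striated muscle markers 7 had negative estimates, as did 9514 of all 18166 genes. The mean of the 8 was 5.94 to 6.31 in control and 5.84 to 5.95 in induced cells. The largest estimates were those of Acta1 (-0.65) and Des (-0.58), while the myogenic regulator Myod1 read 5.56 to 6.05 on all arrays.

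Itga6, the laminin receptor subunit that the textbook exchange brings in, read 5.63, 6.10 and 7.22 in control and 6.58, 6.66 and 6.76 in induced cells. Control replicate 3 was the highest array of all, so the groups overlap, and the difference of 0.35 (95% interval -0.56 to 1.26) had an adjusted p of 0.7. Itga5, the fibronectin receptor subunit that the exchange removes, read 9.10, 9.42 and 9.58 in control and 9.34, 9.44 and 8.97 in induced cells. These overlap too, with a difference of -0.12 (95% interval -0.55 to 0.32). The 2 changes were compared directly as Itga6 minus Itga5 on each array, which was -3.47, -3.32 and -2.36 in control and -2.76, -2.78 and -2.21 in induced cells. The mean moved by 0.47 towards Itga6, and an exact permutation test gave p = 0.3 (two-sided, n = 3 arrays per group), where 0.1 is the smallest p this design allows. With 1 array left out the shift ran from 0.25 (without control replicate 1) to 0.81 (without control replicate 3). Itga3, the third laminin-binding subunit, read 7.21 to 8.03 in control and 7.09 to 7.69 in induced cells, a difference of -0.06 (95% interval -0.69 to 0.56).

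Of the other subunits that bind the Arg-Gly-Asp sequence, Itga8, known from mesenchymal and smooth muscle cells, varied within both groups. It read 8.91, 11.44 and 9.70 in control and 10.27, 10.36 and 7.92 in induced cells. The control arrays alone spread over 2.53, and the difference of -0.50 (95% interval -2.54 to 1.53) leaves either direction possible. Itga2b, the platelet subunit, read 5.01 to 5.51 on all arrays.

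Itga4 was the member with the second lowest adjusted p. It read 6.60, 6.72 and 6.57 in control and 7.98, 7.74 and 8.62 in induced cells. The control arrays lay within 0.14 of each other, and the lowest induced array was 1.03 above the highest of them. The difference of 1.49 (SE 0.23, 2.80-fold) had an adjusted p of 0.0507. Without induced replicate 3 it was 1.23 and was called (adjusted p = 0.00744), as it was among genes above the median mean signal (0.0411). With any other array left out Itga4 was not called (adjusted p = 0.104 to 0.177), nor was it with all features tested (0.0825). Itga9, its nearest relative, which binds tenascin, read 5.93, 5.96 and 6.16 in control and 6.57, 6.37 and 5.59 in induced cells. Induced replicate 3 was its lowest array and the other induced arrays its highest, and the difference was 0.16 (95% interval -0.45 to 0.77).

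White blood cells also carry alpha4, so the leukocyte integrins are set beside it. Itgb2, the beta subunit of all 4 leukocyte-specific receptors measured here, read 6.68, 7.06 and 5.23 in control and 6.73, 6.41 and 5.17 in induced cells. Itgam, its partner on macrophages and neutrophils, read 5.59, 6.40 and 4.79 in control and 6.51, 5.79 and 5.21 in induced cells. Both were lowest on the replicate 3 array of each group. The mean of 18 macrophage and leukocyte markers was also lowest there, at 6.57, 6.94 and 5.53 in control and 7.51, 7.07 and 5.94 in induced cells. Itga4 was highest on induced replicate 3, as were 2 of the 18 markers, Cd68 at 9.45 and Laptm5 at 9.43. The part of leukocyte RNA in the Itga4 values was not tested. Itgal, Itgad and Itgax read 5.00 to 5.95 on all arrays, with differences of 0.05, -0.01 and 0.01. Of the 18 markers 13 had positive estimates, with a median of 0.44. By limma 0 were called, against 0.749% of all genes, and 2 (11.1%) had an unadjusted p under 0.05, against 17.6%. The 5 negative estimates were those of Adgre1 (-0.43), Ptprc (-0.34), Spi1 (-0.07), Tyrobp (-0.04) and Cd74 (-0.0023). Ptprc, which encodes the leukocyte antigen CD45, read 4.04 to 5.64 on all arrays. The largest positive estimates were those of the complement gene C1qb (1.89), the lysosomal gene Cd68 (1.39) and Laptm5 (1.24). C1qb read 8.17 and 7.60 on induced replicates 1 and 2, but 4.92 on induced replicate 3, its lowest array. Of the 4 leukocyte alpha subunits 0 were called by limma, and 0 had an unadjusted p under 0.05, against 0.749% and 17.6% of all genes.

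**Figure D3:**
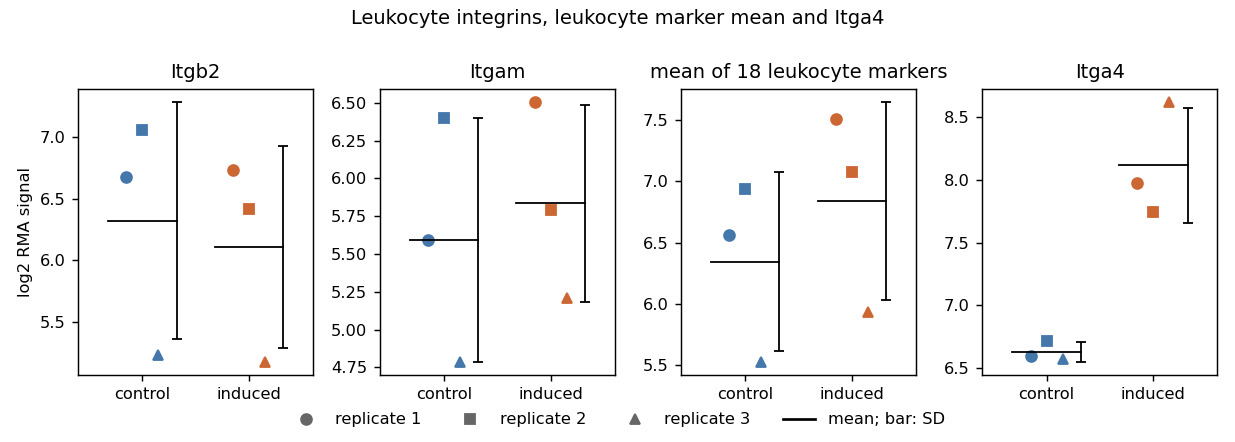
Log2 RMA signal on each array for Itgb2, Itgam, the mean of 18 macrophage and leukocyte markers, and Itga4, with group mean and SD (n = 3), each panel on its own axis. The replicate 3 arrays (triangles) are lowest in both groups in the first 3 panels, whereas induced replicate 3 is highest for Itga4.

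All 7 measured beta subunits had negative estimates, as did 9514 of all 18166 genes. Without induced replicate 3 the estimates of Itgb1, Itgb2 and Itgb8 were positive, at 0.07, 0.25 and 0.15. Of the 7, 0 were called by limma, with 1, Itgb5, at an unadjusted p under 0.05, against 0.749% and 17.6% of all genes. Itgb5 read 10.04, 10.42 and 10.18 in control and 8.87, 9.21 and 8.05 in induced cells. The highest induced array lay 0.83 below the lowest control array. The difference of -1.50 (SE 0.30, 2.84-fold) had an adjusted p of 0.0866, and without induced replicate 3 it was -1.17 and was called (adjusted p = 0.0207). With any other array left out Itgb5 was not called (adjusted p = 0.124 to 0.264). Itgb1, the partner of alpha1 to alpha11 and the subunit most cells depend on, read 11.64, 11.77 and 11.84 in control and 11.74, 11.90 and 11.13 in induced cells. Apart from induced replicate 3 the arrays differed little, and the difference of -0.16 had a 95% interval of -0.66 to 0.34. This interval lies wholly above the estimate for Itga11, whose own interval was -2.87 to -1.54.

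Itgb8, which pairs with alphav and activates latent TGF-beta, read 6.57, 6.15 and 5.92 in control and 6.28, 6.44 and 5.00 in induced cells, a difference of -0.31 (95% interval -1.25 to 0.64). Itgb4, the hemidesmosome subunit of epithelia, read 5.48 to 5.76 in control and 5.13 to 5.65 in induced cells. Itgb6, an epithelial partner of alphav, and Itgb7, a lymphocyte partner of alpha4, had differences of -0.07 and -0.09. Itgb7 read 4.88 to 5.40 and Itgb6 4.50 to 4.75 on all arrays. RMA gives no detection call, and whether these dim features show expression was not tested.

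The laminin chains showed no called change, 0 of 9 by limma, where 0.749% of all genes were called. Of the 9, 0 had an unadjusted p under 0.05, against 17.6% of all genes. Groups that did not overlap were found for 0 of the 9, against 25.4% of all genes. Lama4, the alpha chain of adipocyte and vascular basement membranes, read 11.23, 11.44 and 11.56 in control and 11.15, 11.17 and 11.27 in induced cells. Only control replicate 1 overlapped the induced arrays, and the difference was -0.21 (95% interval -0.51 to 0.08). A second feature of Lama4 gave the same difference, -0.21 (SE 0.18). Lamc1, the gamma chain of most laminins, read 11.58, 11.46 and 11.25 in control and 11.59, 11.58 and 10.93 in induced cells, a difference of -0.06 (95% interval -0.56 to 0.43).

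Lama2, the alpha chain of muscle and nerve basement membranes, was the most variable chain, reading 9.41, 8.14 and 9.04 in control and 10.07, 9.76 and 7.93 in induced cells. Induced replicates 1 and 2 were its highest arrays and induced replicate 3 its lowest. Its difference was 0.39 with all arrays (95% interval -1.05 to 1.83) and 1.05 without induced replicate 3, neither of which was called. Lamb2, the beta chain that can replace beta1, read 8.92 to 9.42 in control, 8.93 and 8.97 on induced replicates 1 and 2, and 8.26 on induced replicate 3. Lama5, the chain of mature epithelial and vascular membranes, read 5.66 to 5.90 in control and 5.83 to 6.09 in induced cells, a difference of 0.23 (95% interval -0.07 to 0.53). Lama1, Lama3, Lamb3 and Lamc3, which are largely embryonic, epithelial or neural chains, had differences of -0.12, 0.05, 0.24 and -0.09, and read between 4.42 and 6.00 on all arrays.

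The nidogens averaged slightly lower. Nid1 read 12.04, 12.11 and 12.33 in control and 12.11, 11.78 and 11.30 in induced cells, a difference of -0.43 (95% interval -0.95 to 0.09). Nid2 read 10.25, 11.13 and 10.83 in control and 10.38, 10.48 and 10.45 in induced cells, a difference of -0.30 (95% interval -0.83 to 0.23). The groups overlap for both.

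**Figure D4:**
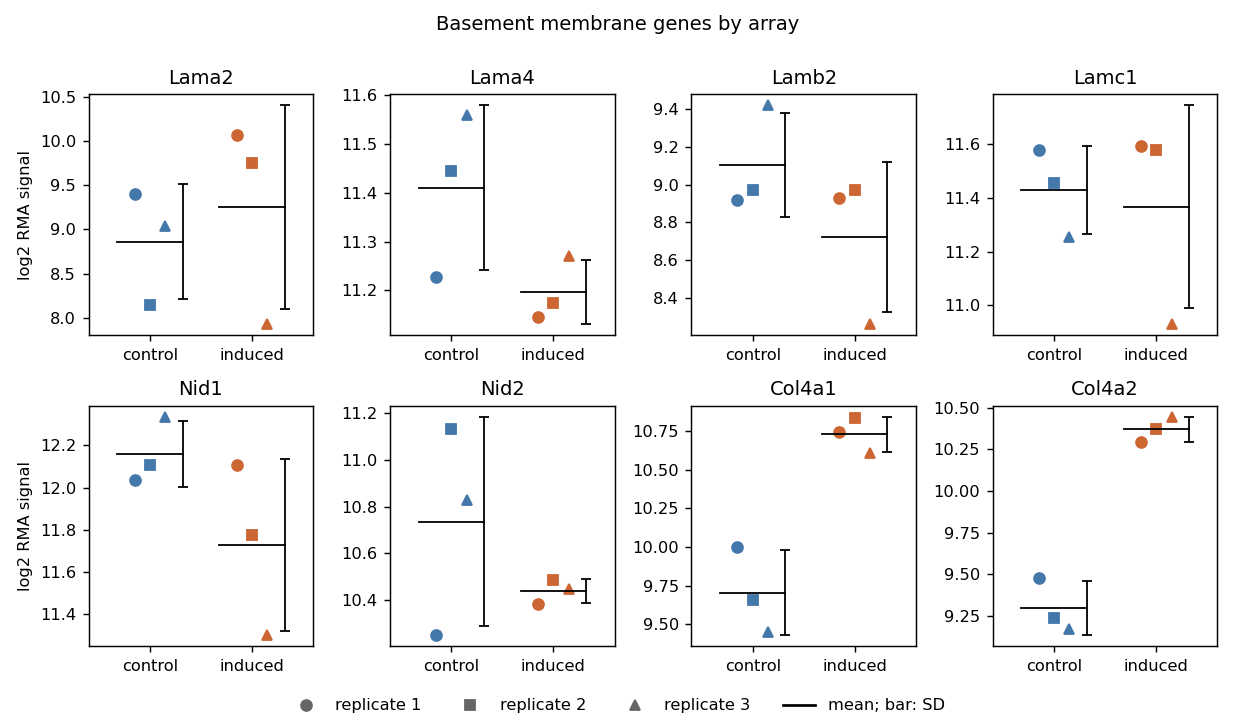
Log2 RMA signal on each array for laminin chains (Lama2, Lama4, Lamb2, Lamc1), nidogens (Nid1, Nid2) and collagen IV chains (Col4a1, Col4a2), with group mean and SD (n = 3), each panel on its own axis. Control and induced arrays overlap for the laminin chains and nidogens and separate for Col4a1 and Col4a2. They overlap for the collagen IV chains Col4a3, Col4a4 and Col4a5, which are not shown.

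Other basement membrane genes were read from a list of partners. Of the 23 measured 1 was called, where 0.749% of all genes were: Col4a2, a collagen IV chain, which rose by 1.08 (SE 0.12, adjusted p = 0.0243). It read 9.48, 9.24 and 9.17 in control and 10.30, 10.37 and 10.45 in induced cells. Its pair Col4a1, transcribed from the same locus in the opposite direction, read 10.00, 9.66 and 9.45 in control and 10.75, 10.83 and 10.61 in induced cells, a difference of 1.03 (adjusted p = 0.0550). The groups did not overlap for 5 partners that were higher and 3 that were lower, together 34.8% against 25.4% of all genes, and the median difference of the list was -0.02. The Col4a2 call was lost without control replicate 2, control replicate 3, induced replicate 1 or induced replicate 2. In these settings 0 partners were called, where 15, 20, 2 and 26 of all genes were. Without control replicate 1, 3 partners and 112 of all genes were called. Without induced replicate 3 the counts were 4 and 557. The groups overlapped for Col4a3, Col4a4 and Col4a5, the other collagen IV chains measured, with differences of -0.11, 0.08 and -0.53. Dag1 and Bcam, laminin receptors that are not integrins, had differences of -0.07 and -0.03.

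Of the 36 measured proteins of the adhesion plaque, which tie integrin tails to actin, 0 were called by limma, with 15 (41.7%) at an unadjusted p under 0.05, against 17.6% of all genes. Estimates were negative for 29 of 36, the median was -0.31, and for 17 genes, 47.2%, all induced arrays lay below all control arrays, where 13.4% of all genes did. For 3 genes all induced arrays lay above, where 12.0% of all genes did. The largest differences were those of Lpxn, a relative of paxillin, at 1.78 (adjusted p = 0.0530), and of the focal adhesion kinase relative Ptk2b, at -1.22 (adjusted p = 0.148). Lpxn read 5.57, 5.22 and 4.53 in control and 6.89, 6.64 and 7.14 in induced cells, opposite to most of its list, and without induced replicate 3 it was the 1 gene of the list called. Of 18 surface partners and regulators of integrins, among them tetraspanins and syndecans, 0 were called by limma, with 5 (27.8%) at an unadjusted p under 0.05 and a median of -0.43. All induced arrays lay below all control arrays for 6 of them, 33.3% against 13.4% of all genes, and above for 0. The syndecan Sdc1 stood at -1.15 (adjusted p = 0.114) and the endocytic adaptor Dab2 at -1.05 (adjusted p = 0.333). On average the surface list read 10.01 to 10.16 in control, 9.93 and 9.97 on induced replicates 1 and 2, and 9.37 on induced replicate 3. The plaque list read 8.62 to 8.86 in control, 8.66 and 8.62 on induced replicates 1 and 2, and 8.32 on induced replicate 3.

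Of the proteins that only bind integrin tails or carry the name, Itgb3bp, which is also a centromere protein, read 7.20, 7.22 and 7.10 in control and 6.72, 6.67 and 6.45 in induced cells. The groups did not overlap, and the difference of -0.56 (SE 0.12) had an adjusted p of 0.0963. Itgb1bp1, a cytoplasmic inhibitor of beta1 activation, had a difference of 0.15 (95% interval -0.25 to 0.55). Itgb1bp2, the muscle protein melusin, had one of -0.18 (95% interval -0.59 to 0.23).

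Induced replicate 3 bore on many of these values. It was the lowest of the 6 arrays for 20 of the 37 members, 54.1%, and for 28.9% of all genes. Without it 4 members were called, Itga11 and Itgb5 lower and Itga4 and Itga7 higher, where 3.07% of all genes were. Without both replicate 3 arrays Itga2 was called as well, 5 members in all, against 4.07% of all genes. In both fits the induced group was replicates 1 and 2 alone, which correlated at 0.994. If these share a culture, the errors of both fits are too small. With array weights 5 were called, Itgb3bp in place of Itga2, against 5.11% of all genes. Without control replicate 2, induced replicate 1 or induced replicate 2 there were 0 called members, where 15, 2 and 26 of all 18166 genes were called. Adipocyte markers were highest and stromal markers lowest on induced replicate 3, as given above, and their part in the member values was not tested.

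**Figure D5:**
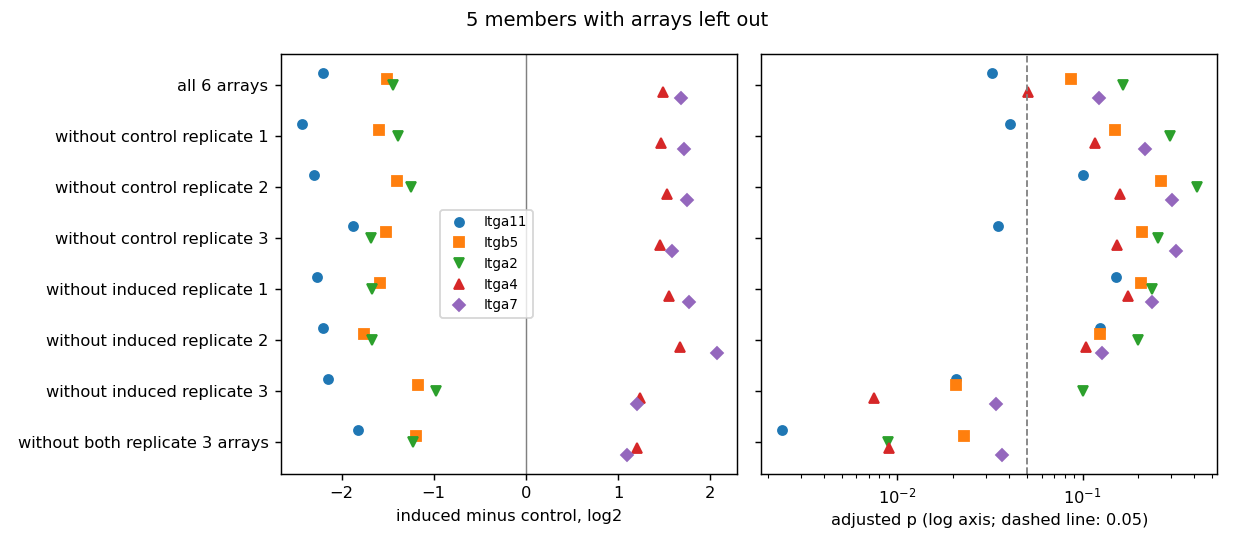
Induced minus control difference in log2 signal (left) and adjusted p on a log axis (right) for 5 members with all 6 arrays and with arrays left out. Each member keeps its direction throughout, while the adjusted p crosses 0.05 (dashed line) upward for Itga11 in 3 settings and downward for Itgb5, Itga4 and Itga7 without induced replicate 3 and for Itga2 without both replicate 3 arrays.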

How the data were processed

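The deposited table holds log2 values that the authors made with RMA, which corrects background, normalizes by quantiles and summarizes probes, per the submitters' processing notes (version not stated). Per the labels' protocols, 6 µg of total RNA went into each biotinylated cRNA. The log2 scale was inferred from the value range (array medians 5.64 to 5.73). RMA compresses low signals, so folds of dim genes are too small, and quantile normalization hides changes in total RNA. Arrays have no read depth; their number limits the precision.

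Of 36685 features 18511 had 1 symbol in the platform annotation, 575 several and 17599 none. The highest-mean feature per symbol was kept (18166 genes); of the members Lama4 alone had more than 1. The groups were fitted in limma 3.58.1 under R 4.3.3 (lmFit, eBayes, two-sided, no replicate block, 4 residual degrees of freedom plus a prior of 2.65), with Benjamini-Hochberg adjustment over all genes. The fit was tested on simulated data.

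The members and lists were chosen with earlier results of these data known. Array values are given for called members, for those with groups that do not overlap and differ by at least 0.5, and for Itga5, Itga6, Itga7, Itga11, Itgb1, Lama4, Lamc1 and Nid1; from each list the called genes, or the 2 with the largest change, are named. Itga1, Itga8, Itga9, Itgb2, Itgam, Itgb8, Lama2, Nid2, Col4a1, Col4a3, Col4a4, Col4a5, Dag1 and Bcam were given values after these were seen. So were Cdh5, Myod1, Ptprc, Adgre1, Spi1, Tyrobp, Cd74, C1qb, Cd68 and Laptm5. The same holds for Egfl7, Tek, Acta1, Des, S100b, Sox10, Notch3 and Myh11. Motifs were also chosen then. Alternatives left out arrays, added the replicate number as a block, averaged features, centred arrays, filtered low signals, tested all features, weighted arrays or changed the prior. The mean of 8 mural markers was 6.40 to 6.61 on all arrays, and that of 8 Schwann cell and epithelial markers 5.44 to 5.88. Among the mural markers 4 had positive estimates, the largest that of Notch3 (0.80), and 4 negative, the largest that of Myh11 (-0.62). In the other list 3 were positive, the largest that of S100b (2.19, limma adjusted p = 0.0911), and 5 negative, the largest that of Sox10 (-0.15).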

Additional observations from a re-analysis of the deposited data

How the results depend on the processing

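With all 6 arrays kept, the number of called members stayed at 1 with averaged features, centred arrays or a trended robust prior. It was 2 among genes above the median mean signal (Itga11 and Itga4, with 163 genes called) and 0 with all features tested (58 genes called). With array weights it was 5 (Itga11, Itgb3bp and Itgb5 lower, Itga4 and Itga7 higher, against 5.11% of all genes). Without both replicate 3 arrays it was 5, where 740 of all genes were called. With 1 array left out it ran from 0 to 4, where 2 to 557 of all genes were called. Over all genes same-numbered arrays deviated together at r = 0.023, 0.12 and 0.154, so the numbers were not taken to pair the cultures. The leukocyte marker mean was lowest on replicate 3 in both groups, and whether the numbers pair the cultures was not tested. With replicate number as a block 0 members were called, Itga11 having an adjusted p of 0.0822, and 12 genes in all. Of the basement membrane partners 0 to 4 were called with 1 array left out, 5 without both replicate 3 arrays and 0 with the block. In the adhesion plaque list 0 to 1 were called with 1 array left out and 2 without both replicate 3 arrays (0 with the block), and among surface partners 1, Sdc4, without both replicate 3 arrays. The shift of Itga6 against Itga5 ran from 0.25 to 0.81 with 1 array left out. The cause of these changes was not tested.

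Of 37 members 17 kept their sign in all 14 alternatives, among them Itga11, Itga2, Itga4, Itga7 and Itgb5. The others changed sign in at least 1, and none of them was called in any setting. Without both replicate 3 arrays the log2 difference was -0.025 for Itga1, 0.11 for Itga10, 0.13 for Itga5, 0.13 for Itga8, -0.031 for Itgax, 0.12 for Itgb1, 0.085 for Itgb7, 0.0014 for Itgb8, 0.0040 for Lamb2, 0.066 for Lamc1 and 0.0054 for Lamc3. With centred arrays it was 0.013 for Itga10 and 0.012 for Itgad. With array weights it was 0.018 for Itga10, 0.15 for Itga3, -0.12 for Itgax, 0.0016 for Itgb1, 0.071 for Itgb8 and 0.10 for Lamc1. With 1 array left out it ran from -0.091 to 0.076 for Itga10, -0.24 to 0.18 for Itga3, -0.25 to 0.022 for Itga5, -1.06 to 0.29 for Itga8, -0.039 to 0.45 for Itga9, -0.23 to 0.24 for Itgad, -0.13 to 0.20 for Itgal, -0.16 to 0.65 for Itgam, -0.13 to 0.11 for Itgax, -0.32 to 0.072 for Itgb1, -0.0028 to 0.26 for Itgb1bp1, -0.76 to 0.25 for Itgb2, -0.24 to 0.021 for Itgb7, -0.57 to 0.15 for Itgb8, -0.020 to 1.05 for Lama2, -0.041 to 0.17 for Lama3 and -0.18 to 0.15 for Lamc1. Signal over background could not be judged, since 16 of 37 members had a mean under 6 and the table has no detection calls.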
